A study of Mus musculus with 12 samples.

Results

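The 10 genes that mark microglia in their resting, surveying state and were followed in every library were P2ry12, P2ry13, Tmem119, Cx3cr1, Csf1r, Sall1, Siglech, Gpr34, Selplg and Fcrls. They were chosen by symbol as homeostatic microglia genes, and all 10 of them were found among the 54532 genes of the count table and among the 17307 genes that passed the filter on low counts. Polyadenylated RNA from the frontal cortex of 12 mice aged 9 months was read. There were 4 groups of 3 mice each, APP/PS1/Hras-/- females beside APP/PS1 females, and APP/PS1/Hras-/- males beside APP/PS1 males. APP/PS1 mice carry transgenes that drive amyloid deposition, and APP/PS1/Hras-/- mice carry the same transgenes in the absence of a functional Hras gene, which encodes a small GTPase. Every mouse carried the amyloid transgenes, so no group shows the level of these genes without them. The Hras deletion is given as Hras-/- with no cell type named, and the promoter of the transgenes is not given in the sources used here.

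Microglia are the resident macrophages of the brain. In the undisturbed brain they hold a set of receptors and surface proteins through which they sense nucleotides, chemokines and growth factors, and the transcription factor Sall1 helps to maintain that identity in mice. Around amyloid plaques microglia are known to lower many of these genes while they raise a disease-associated set.

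Total counts ran from 13984692 to 20174131 per library, and the 10 genes held between 102 counts (Fcrls in APP/PS1 male 3) and 3862 counts (Csf1r in an APP/PS1 female). Hras averaged 21.3 ± 1.68 CPM in APP/PS1/Hras-/- mice and 82.8 ± 9.84 CPM in APP/PS1 mice (SD, n = 6 each), with no overlap. CPM here are counts scaled to the library total with the TMM factors of edgeR. Slc17a7, the vesicular glutamate transporter of cortical excitatory neurons, was abundant throughout, at 965 to 1445 CPM. The dissections differed in what they held beside cortex: Ttr, a main transcript of the choroid plexus, was at 3.55 CPM in APP/PS1/Hras-/- female 3 and at 2837 CPM in APP/PS1 female 2. The second of these and male 1 of the APP/PS1/Hras-/- mice stood apart on the first principal component, which held 23.9% of the variance. Of markers of blood-borne cells, Cd3e of T cells had a mean of 0.0722 CPM, S100a8 of neutrophils 0.113 CPM, and Camp was at 0 in 8 of 12 libraries. Other genes of the monocyte and neutrophil list were detected, with 1 to 14 counts of Ccr2, 1 to 9 of S100a9 and 0 to 20 of Ly6c2 per library. The monocyte and neutrophil list summed to 0.649 to 2.14 CPM. The lymphocyte list was not at 0 as a whole: it summed to 7.60 to 20.8 CPM, mostly from Trbc2 at 3.11 to 12.6 CPM and Cd4 at 0.713 to 7.29 CPM. Siglech also marks plasmacytoid dendritic cells in mice, whose other markers Ccr9 and Klk1 averaged 0.173 CPM and 0.00573 CPM, with Klk1 at 0 in 11 of 12 libraries. That list summed to 280.2 to 379.98 CPM, mostly from Tcf4, a transcription factor that neurons also express, at 263 to 356 CPM, and its genes Runx2, Bst2 and Cox6a2 were detected in every library.

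The members lie on 7 chromosomes, 3 of them on chromosome 3. Coordinates are those of GENCODE M21 on GRCm38. P2ry12 (ENSMUSG00000036353, chr3:59216272-59262871, minus strand) and P2ry13 (ENSMUSG00000036362, chr3:59207892-59210882, minus strand) are neighbours inside Med12l, which runs on the opposite strand and shares 9 exon bases with P2ry12 and 0 with P2ry13. Fcrls (ENSMUSG00000015852, chr3:87250758-87263738, minus strand) overlaps no other annotated gene. Tmem119 (ENSMUSG00000054675, chr5:113793729-113800516, minus strand) and Selplg (ENSMUSG00000048163, chr5:113818536-113832644, minus strand) are also close neighbours. Cx3cr1 (ENSMUSG00000052336, chr9:119901616-120069879, minus strand) overlaps 9 other annotated genes and shares 78 exon bases with the antisense gene Gm33858. Sall1 (ENSMUSG00000031665, chr8:89027235-89044162, minus strand) and Siglech (ENSMUSG00000051504, chr7:55768178-55778925, plus strand) overlap no other gene, and Gpr34 (ENSMUSG00000040229, chrX:13632089-13640858, plus strand) lies inside Cask with 0 shared exon bases.

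RefSeq promoter windows on GRCm38.p6, 250 bases before to 50 bases after a transcription start, were at hand for 6 of the 10 members in 8 windows. Windows are shown for 4 members: the adjacent receptor genes P2ry12 and P2ry13, Cx3cr1, whose level followed the members other than Fcrls most closely between mice, and Fcrls, whose level did not follow them. Each is written 5′ to 3′ on the gene's own minus strand, and capitals mark a match to AGGAAGT on either strand (ACTTCCT on the other). These letters hold the core that Ets family factors, among them the macrophage factor PU.1, are known to bind. In order the windows are chr3:59262936-59263235, chr3:59210833-59211132, chr9:120068247-120068546 and chr3:87263475-87263774.
P2ry12: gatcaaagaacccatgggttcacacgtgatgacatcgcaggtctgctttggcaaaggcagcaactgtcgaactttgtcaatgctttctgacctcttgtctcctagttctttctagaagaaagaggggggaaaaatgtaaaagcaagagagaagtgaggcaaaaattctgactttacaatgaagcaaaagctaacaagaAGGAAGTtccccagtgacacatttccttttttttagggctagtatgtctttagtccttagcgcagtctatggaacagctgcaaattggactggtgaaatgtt
P2ry13: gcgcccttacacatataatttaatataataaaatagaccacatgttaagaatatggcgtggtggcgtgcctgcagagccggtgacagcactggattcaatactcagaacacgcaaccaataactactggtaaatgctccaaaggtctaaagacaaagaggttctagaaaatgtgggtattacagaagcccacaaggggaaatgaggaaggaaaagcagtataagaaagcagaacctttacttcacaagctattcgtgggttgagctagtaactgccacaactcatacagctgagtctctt
Cx3cr1: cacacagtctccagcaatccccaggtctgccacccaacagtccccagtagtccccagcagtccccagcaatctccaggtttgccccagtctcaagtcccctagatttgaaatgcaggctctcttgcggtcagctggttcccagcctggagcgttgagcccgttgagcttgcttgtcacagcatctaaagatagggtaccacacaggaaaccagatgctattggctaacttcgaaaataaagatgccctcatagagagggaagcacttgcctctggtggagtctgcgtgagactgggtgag
Fcrls: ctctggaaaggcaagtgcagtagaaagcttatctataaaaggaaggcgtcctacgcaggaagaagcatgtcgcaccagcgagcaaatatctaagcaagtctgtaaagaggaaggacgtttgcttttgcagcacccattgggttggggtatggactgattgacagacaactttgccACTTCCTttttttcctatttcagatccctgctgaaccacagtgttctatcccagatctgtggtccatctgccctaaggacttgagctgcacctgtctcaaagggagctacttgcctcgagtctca
The match lay from 52 to 46 bases before the start in P2ry12 and from 75 to 69 bases before it in Fcrls. AGGAAGT was found in 3 of the 8 windows of the members (P2ry12, Fcrls and a window of Sall1), and in 3072 of all 32851 RefSeq windows of this length (9.35%). The longer form GAGGAAGT, which contains AGGAAGT, was in 0 of the 8 windows and in 3.2% of all windows. Both the member that followed the others least and a member that followed them held a match, so a match was found on either side of that distinction.

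Levels per exon length were compared as TPM, counts scaled for exon length and library total, computed from the counts and the GENCODE exon lengths over all 12 libraries. Csf1r, the receptor tyrosine kinase of the growth factors Csf1 and Il34, had the highest level at 115 ± 19.3 TPM (SD, n = 12). It was followed by Cx3cr1 at 83.7 ± 14.9 TPM, P2ry12 at 69.6 ± 12.2 TPM and Tmem119 at 57.3 ± 11.5 TPM. Fcrls at 46.5 ± 20.4 TPM, Gpr34 at 42.1 ± 12.6 TPM and Selplg at 41.2 ± 10.4 TPM formed the middle of the order. Siglech at 34.6 ± 8.67 TPM, Sall1 at 27.7 ± 2.92 TPM and P2ry13 at 25.4 ± 4.32 TPM were the lowest. The ranges over mice overlapped for every pair of neighbours in that order. Within a library the order was firmer: Csf1r lay above Cx3cr1 in 12 of 12 libraries, Cx3cr1 above P2ry12 in 11, P2ry12 above Tmem119 in 11, and Selplg above Siglech in 12. Gpr34 lay above Selplg in 7 of 12 libraries, so their order was not fixed. Sall1 varied least over the mice, with a coefficient of variation of 10.6% and a highest level 1.51 times the lowest. Fcrls varied most, with a coefficient of variation of 44.0% and a highest level 7.07 times the lowest.

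**Figure D1:**
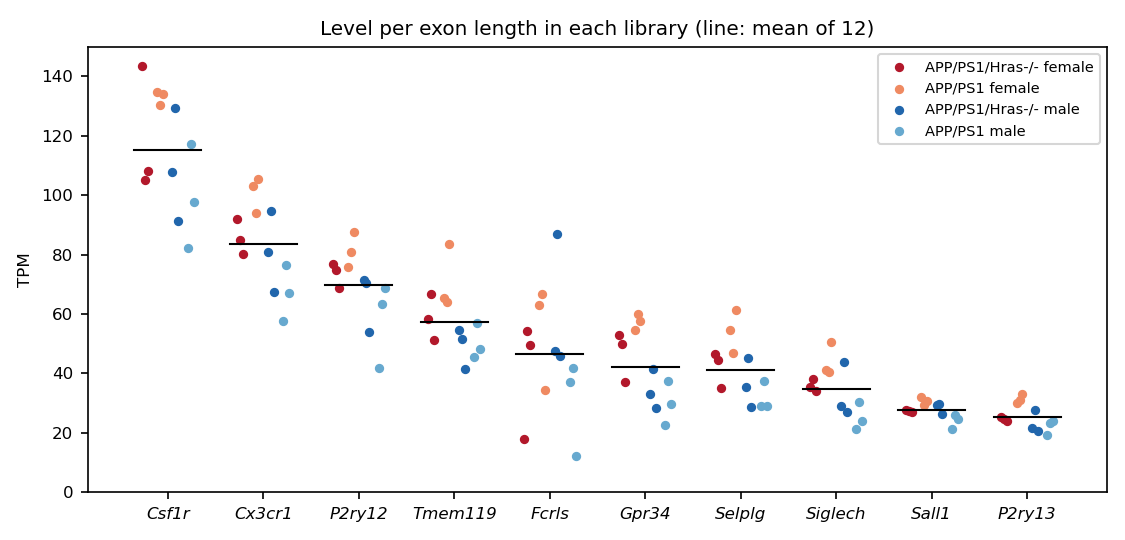
Level of each member in TPM, each point a library and each line the mean of 12 libraries, coloured by genotype and sex. Csf1r has the highest mean, at 115 TPM, and P2ry13 the lowest, at 25.4 TPM, while the points of Fcrls spread most widely.

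The values of each member by genotype and sex are given in CPM, beginning with the receptors of soluble signals. Csf1r (ENSMUSG00000024621, chr18:61100598-61132149, plus strand) shares 873 exon bases with Hmgxb3 on the opposite strand. The strand setting of the counting is not stated in those sources, and reads of shared bases may belong to either gene. Csf1r had 203, 151 and 155 CPM in APP/PS1/Hras-/- females, 191, 186 and 191 CPM in APP/PS1 females, 155, 183 and 127 CPM in APP/PS1/Hras-/- males, and 123, 166 and 138 CPM in APP/PS1 males. Every APP/PS1 female lay above every APP/PS1 male, and the APP/PS1/Hras-/- females overlapped both groups. Cx3cr1, the receptor of the neuronal chemokine Cx3cl1, had 102, 95.7 and 89.8 CPM in APP/PS1/Hras-/- females, 114, 105 and 117 CPM in APP/PS1 females, 90.6, 104 and 73.3 CPM in APP/PS1/Hras-/- males, and 67.1, 84.7 and 74.0 CPM in APP/PS1 males. The APP/PS1 females were the highest of the 12 mice, with the APP/PS1/Hras-/- females below all of them and the APP/PS1 males lower still.

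P2ry12, the ADP receptor through which microglia send processes to injured cells, had 48.1, 47.6 and 43.4 CPM in APP/PS1/Hras-/- females, 47.4, 51.0 and 55.1 CPM in APP/PS1 females, 45.2, 43.9 and 33.0 CPM in APP/PS1/Hras-/- males, and 27.6, 39.7 and 43.0 CPM in APP/PS1 males. The sexes did not overlap among APP/PS1 mice, and the genotypes overlapped in both sexes. P2ry13, a related ADP receptor, had 15.8, 15.6 and 15.0 CPM in APP/PS1/Hras-/- females, 18.7, 19.4 and 20.7 CPM in APP/PS1 females, 13.5, 17.1 and 12.5 CPM in APP/PS1/Hras-/- males, and 12.7, 14.4 and 14.9 CPM in APP/PS1 males. The 3 APP/PS1 females were above the other 9 mice. Gpr34, a receptor of lysophosphatidylserine, had 27.3, 26.1 and 19.3 CPM in APP/PS1/Hras-/- females, 28.0, 30.9 and 29.7 CPM in APP/PS1 females, 17.2, 21.3 and 14.3 CPM in APP/PS1/Hras-/- males, and 12.2, 19.3 and 15.3 CPM in APP/PS1 males. The APP/PS1 females were again above all other mice, and APP/PS1/Hras-/- female 3 lay within the range of the males.

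Among the surface proteins, Tmem119, a membrane protein used as a marker of brain microglia, had 33.2, 38.7 and 29.5 CPM in APP/PS1/Hras-/- females, 37.1, 36.6 and 47.7 CPM in APP/PS1 females, 31.5, 29.2 and 23.1 CPM in APP/PS1/Hras-/- males, and 27.1, 32.3 and 27.4 CPM in APP/PS1 males. The genotypes overlapped in both sexes, and the sexes did not overlap in APP/PS1 mice. Siglech, a lectin that signals through the adaptor Tyrobp, had 29.4, 32.2 and 28.7 CPM in APP/PS1/Hras-/- females, 34.2, 33.8 and 42.3 CPM in APP/PS1 females, 24.3, 36.4 and 22.1 CPM in APP/PS1/Hras-/- males, and 18.7, 25.4 and 19.9 CPM in APP/PS1 males. APP/PS1/Hras-/- male 2 reached the range of the APP/PS1 females, while the APP/PS1/Hras-/- females were below it. Selplg, a ligand of selectins, had 48.9, 47.4 and 37.2 CPM in APP/PS1/Hras-/- females, 57.1, 49.7 and 64.4 CPM in APP/PS1 females, 37.8, 47.1 and 29.6 CPM in APP/PS1/Hras-/- males, and 32.1, 39.4 and 30.5 CPM in APP/PS1 males. Its highest 3 values were those of the APP/PS1 females.

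Fcrls, a scavenger receptor related to Fc receptors, had 10.3, 31.7 and 28.8 CPM in APP/PS1/Hras-/- females, 36.0, 38.4 and 19.9 CPM in APP/PS1 females, 27.7, 49.6 and 25.9 CPM in APP/PS1/Hras-/- males, and 22.4, 24.0 and 7.01 CPM in APP/PS1 males. Single mice lay far below the rest of their group in 3 of the groups, and only among males did the genotypes not overlap. Sall1, the transcription factor of the set, had 36.0, 36.2 and 35.2 CPM in APP/PS1/Hras-/- females, 41.5, 38.4 and 39.8 CPM in APP/PS1 females, 38.5, 38.5 and 33.4 CPM in APP/PS1/Hras-/- males, and 28.8, 33.7 and 32.0 CPM in APP/PS1 males. The highest 2 values were those of APP/PS1 females and the lowest 2 those of APP/PS1 males, and the APP/PS1/Hras-/- females and males overlapped each other. Summed over the 10 members, libraries held 482 to 554 CPM in APP/PS1/Hras-/- females, 589 to 627 CPM in APP/PS1 females, 394 to 570 CPM in APP/PS1/Hras-/- males and 371 to 479 CPM in APP/PS1 males.

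**Figure D2:**
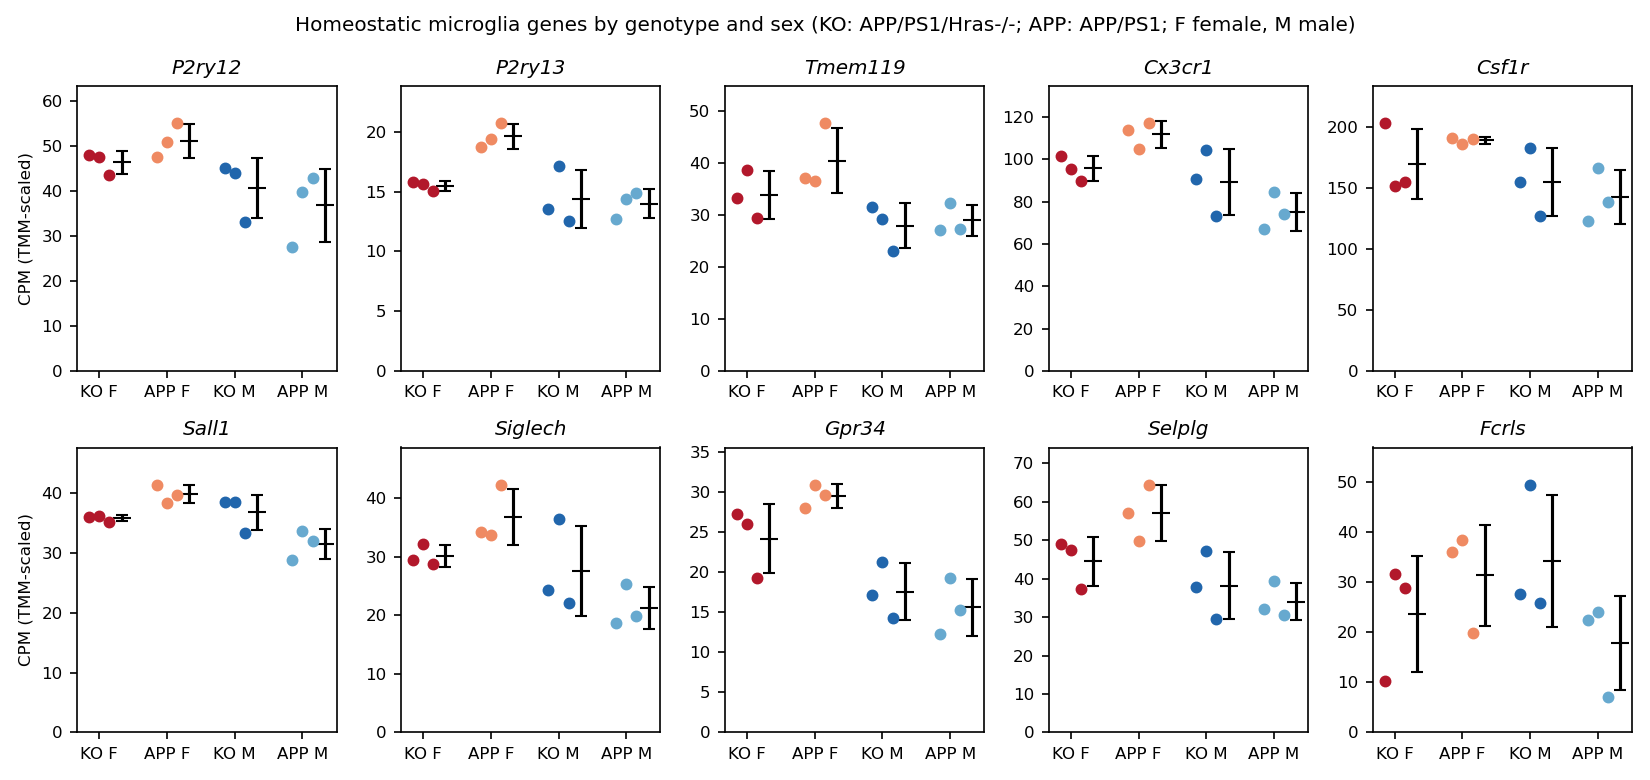
Each member's CPM in every library, with APP/PS1/Hras-/- (KO) left of APP/PS1 (APP) within females (F) and males (M), and the mean ± SD of 3 mice beside the points. For 9 members, Fcrls apart, the APP/PS1 females sit above the APP/PS1 males without overlap.

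Whether the loss of Hras went with another level of these genes was asked first across both sexes. By the fitted log2 differences 5 of the 10 members were higher in APP/PS1/Hras-/- mice and 5 lower, with a median of -0.01 and a range from -0.16 (Tmem119) to 0.26 (Fcrls). Cx3cr1 averaged 92.6 ± 11.1 CPM in APP/PS1/Hras-/- mice and 93.6 ± 21.2 CPM in APP/PS1 mice (SD, n = 6 each), and its log2 difference of 0.01 had a 95% interval of -0.20 to 0.22. P2ry12 averaged 43.5 ± 5.48 CPM in APP/PS1/Hras-/- mice and 44.0 ± 9.71 CPM in APP/PS1 mice, and its log2 difference of 0.0016 had an interval of -0.22 to 0.22. By plain mean CPM 2 of the 10 members, Sall1 and Fcrls, were higher in APP/PS1/Hras-/- mice; the fitted differences are on the log scale with sex as a term. With the RNA integrity number (RIN) as a covariate 4 members changed sign, and the median was -0.13 with a range from -0.26 to 0.07. No member passed the quasi-likelihood test of edgeR at a Benjamini-Hochberg adjusted p of 0.05 (each adjusted p was 1.0), and 0 had an unadjusted p under 0.05. Over all genes tested, 3 were called (0.0173%), and 291 (1.68%) had an unadjusted p under 0.05. Of DESeq2 and the other fits, none called a member in this comparison. The genotypes overlapped for all 10 members, and over all genes 0.0636% were higher and 0.052% lower in APP/PS1/Hras-/- mice without overlap. In whole tissue, fewer microglia and less RNA per microglial cell cannot be told apart, for this and for each later comparison.

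In females all 10 members were lower in APP/PS1/Hras-/- mice than in APP/PS1 mice, although none passed the test. The median log2 difference was -0.28, against 0.0021 over all genes tested, of which 50.5% were higher. P2ry13 averaged 15.5 ± 0.411 CPM in APP/PS1/Hras-/- females and 19.6 ± 1.01 CPM in APP/PS1 females (SD, n = 3 each), a log2 difference of -0.34 (SE 0.12, edgeR unadjusted p = 0.0148, adjusted p = 0.991). It was the sole member with an unadjusted p under 0.05, as were 3.81% of all genes. Selplg averaged 44.5 ± 6.37 CPM in APP/PS1/Hras-/- females and 57.1 ± 7.39 CPM in APP/PS1 females, a log2 difference of -0.36 (95% interval -0.69 to -0.03, edgeR unadjusted p = 0.0523). That interval is a normal one, narrower than the F test implies, so it leaves out 0 although the p was above 0.05. Siglech and Gpr34 each differed by -0.29, Tmem119 by -0.26 and Cx3cr1 by -0.23, and the intervals of these 4 included 0. Sall1 at -0.16, Csf1r at -0.15 and P2ry12 at -0.14 differed least. Fcrls had the largest difference and the widest error, at -0.41 (SE 0.54, interval -1.47 to 0.65), and it was -0.05 without APP/PS1/Hras-/- female 1. The test called 0 members and 2 genes in all (0.0116%). In 6 members (P2ry13, Cx3cr1, Sall1, Siglech, Gpr34 and Selplg) every APP/PS1/Hras-/- female lay below every APP/PS1 female, as in 5% of all genes, while 0 members and 4.33% of all genes were higher without overlap. RIN ran from 8.3 to 8.5 in APP/PS1/Hras-/- females and from 8.5 to 8.6 in APP/PS1 females, and with it as a covariate the median was -0.20 and no member changed sign. Markers of other cells moved with this comparison, and their part in it was not tested. Lower in APP/PS1/Hras-/- females were 11 of 12 border-associated macrophage genes (median -0.28), 9 of 9 astrocyte genes (median -0.19) and 8 of 8 leptomeningeal genes (median -0.52). So were 8 of 8 choroid plexus genes (median -2.21). The mean centred log2 level of the choroid plexus list ran from -2.11 to 1.41 in APP/PS1/Hras-/- females and from -0.98 to 3.90 in APP/PS1 females. Of the neuronal genes, 9 of 10 were higher in APP/PS1/Hras-/- females (median 0.15).

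In males 9 of the 10 members were higher in APP/PS1/Hras-/- mice, with a median log2 difference of 0.17, against 0.0063 over all genes, and Tmem119 was the exception at -0.05. Sall1 averaged 36.8 ± 2.93 CPM in APP/PS1/Hras-/- males and 31.5 ± 2.46 CPM in APP/PS1 males (SD, n = 3 each), a log2 difference of 0.22 (SE 0.086, edgeR unadjusted p = 0.0222, adjusted p = 0.945). It alone among the members had an unadjusted p under 0.05, against 3.91% of all genes. Fcrls averaged 34.4 ± 13.2 CPM in APP/PS1/Hras-/- males and 17.8 ± 9.40 CPM in APP/PS1 males, a log2 difference of 0.94 (95% interval -0.13 to 2.01), and was the sole member whose groups did not overlap, as in 5.08% of all genes with higher and 5.22% with lower values. Siglech differed by 0.37, Cx3cr1 by 0.25, Selplg and Gpr34 by 0.17 each, P2ry12 by 0.15, Csf1r by 0.12 and P2ry13 by 0.04. The test called 0 members and 2 genes in all (0.0116%). Without APP/PS1 male 3 the difference of Fcrls was 0.57, and without APP/PS1/Hras-/- male 2 it was 0.58. RIN ran from 8.6 to 8.7 in APP/PS1/Hras-/- males and from 7.8 to 8.3 in APP/PS1 males. With RIN as a covariate, 6 members changed sign and the median was -0.066. RIN did not overlap between these 2 groups, so the covariate cannot separate it from genotype in males. The median in males also rested on single mice: it was 0.05 without APP/PS1/Hras-/- male 2, 0.28 without APP/PS1/Hras-/- male 3, 0.07 without APP/PS1 male 1 and 0.28 without APP/PS1 male 2. Other cell types moved in males too, and their part was not tested. Higher in APP/PS1/Hras-/- males were 10 of 12 border-associated macrophage genes (median 0.46), 7 of 9 astrocyte genes (median 0.13) and 8 of 8 choroid plexus genes (median 1.48). Neuronal genes were lower for 8 of 10 (median -0.13).

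The difference between the 2 genotype effects, female minus male, was below 0 for all 10 members, with a median log2 value of -0.42, against -0.0068 over all genes. It was -0.66 for Siglech (SE 0.25), -0.53 for Selplg (SE 0.24), -0.47 for Cx3cr1 (SE 0.17), -0.38 for P2ry13 (SE 0.17) and -0.38 for Sall1 (SE 0.12). These 5 had an unadjusted p under 0.05 in the edgeR interaction test, from 0.00806 for Sall1 to 0.0464 for Selplg, with an adjusted p of 0.667 each. Of all genes 1248 (7.21%) had an unadjusted p under 0.05, and the test called 0 members and 0 genes (0%). DESeq2 and limma-voom also called 0 genes. Gpr34 at -0.46, P2ry12 at -0.29, Csf1r at -0.27 and Tmem119 at -0.21 had intervals that included 0, as did Fcrls at -1.35 (SE 0.77). With RIN as a covariate 3 members changed sign, and the median was -0.15 with a range from -2.73 to 0.35. Because RIN did not overlap between the genotypes in males, that fit cannot separate the 2 here either. A female and a male genotype effect that lay on either side of 0 were thus not told apart by the adjusted test. The difference of the effects was also below 0 for 11 of 12 border-associated macrophage genes (median -0.69) and 9 of 9 astrocyte genes (median -0.30). It was below 0 for 8 of 8 choroid plexus genes (median -3.61) and above 0 for 9 of 10 neuronal genes (median 0.28). The part of these cell types in the members' values was not tested.

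The sexes were then compared within each genotype. In APP/PS1/Hras-/- mice 8 of the 10 members were higher in females than in males, by a median log2 difference of 0.13, against 0.00012 over all genes. Gpr34 averaged 24.2 ± 4.29 CPM in APP/PS1/Hras-/- females and 17.6 ± 3.51 CPM in APP/PS1/Hras-/- males (SD, n = 3 each), a log2 difference of 0.46 (SE 0.18, edgeR unadjusted p = 0.0258, adjusted p = 1.0), and was the sole member under an unadjusted p of 0.05 (2.64% of all genes). Tmem119 differed by 0.27, Selplg by 0.22 and P2ry12 by 0.19, and Csf1r, Siglech, P2ry13 and Cx3cr1 by 0.10 to 0.13. Sall1 at -0.04 and Fcrls at -0.54 were lower in females. The sexes overlapped for all 10 members, while 3.14% of all genes were higher and 2.83% lower in females without overlap. The test called 0 members and 8 genes (0.0462%). RIN ran from 8.3 to 8.5 in APP/PS1/Hras-/- females and from 8.6 to 8.7 in APP/PS1/Hras-/- males, without overlap. With it as a covariate the median was 0.27, but the covariate cannot separate RIN from sex in these mice. The median was 0.01 without APP/PS1/Hras-/- male 3 and 0.26 without APP/PS1/Hras-/- male 2.

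In APP/PS1 mice all 10 members were higher in females than in males, by a median log2 difference of 0.53, against 0.0081 over all genes. Gpr34 had the largest difference, with 29.5 ± 1.49 CPM in APP/PS1 females and 15.6 ± 3.55 CPM in APP/PS1 males (SD, n = 3 each), a log2 difference of 0.92 (SE 0.18, edgeR unadjusted p = 0.000225, adjusted p = 0.220). Siglech averaged 36.7 ± 4.80 CPM in APP/PS1 females and 21.3 ± 3.58 CPM in APP/PS1 males, a log2 difference of 0.78 (SE 0.18, edgeR adjusted p = 0.328). Selplg averaged 57.1 ± 7.39 CPM in APP/PS1 females and 34.0 ± 4.75 CPM in APP/PS1 males, a log2 difference of 0.75 (SE 0.17, edgeR adjusted p = 0.331). The chemokine receptor gene had the second lowest adjusted p. Cx3cr1 averaged 112 ± 6.41 CPM in APP/PS1 females and 75.3 ± 8.89 CPM in APP/PS1 males, a log2 difference of 0.57 (SE 0.12, edgeR adjusted p = 0.284). P2ry13, P2ry12 and Tmem119 differed by 0.48 to 0.49, Csf1r by 0.41 and Sall1 by 0.34, with edgeR adjusted p from 0.375 to 0.403. Fcrls differed by 0.81, but its interval of -0.26 to 1.88 included 0 (edgeR adjusted p = 0.598), and it was 0.43 without APP/PS1 male 3.

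For 9 of these members every APP/PS1 female lay above every APP/PS1 male, and the same 9 had an unadjusted p under 0.05. Over all genes 10.2% were higher and 9.9% lower in females without overlap, and 10.7% had an unadjusted p under 0.05. The edgeR test called 0 members and 9 genes (0.052%). The call depended on the tool: DESeq2 called 4 members, Gpr34 (adjusted p = 0.00337), Cx3cr1 (0.0111), Selplg (0.0159) and Siglech (0.0162), and 54 of 14942 genes (0.361%). Without a filter on low counts edgeR called Cx3cr1 (adjusted p = 0.0494) among 11 of 31149 genes (0.0353%). RNA integrity moved with this comparison, since it ran from 8.5 to 8.6 in APP/PS1 females and from 7.8 to 8.3 in APP/PS1 males. With it as a covariate the 10 differences stayed above 0, from 0.09 (P2ry12) to 1.65 (Fcrls), with a median of 0.41 and 0 members called. RIN did not overlap between these groups, so the covariate cannot separate it from sex in APP/PS1 mice. The comparisons within a sex and within a genotype share libraries, so the APP/PS1 females enter both the female genotype differences and these sex differences.

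**Figure D3:**
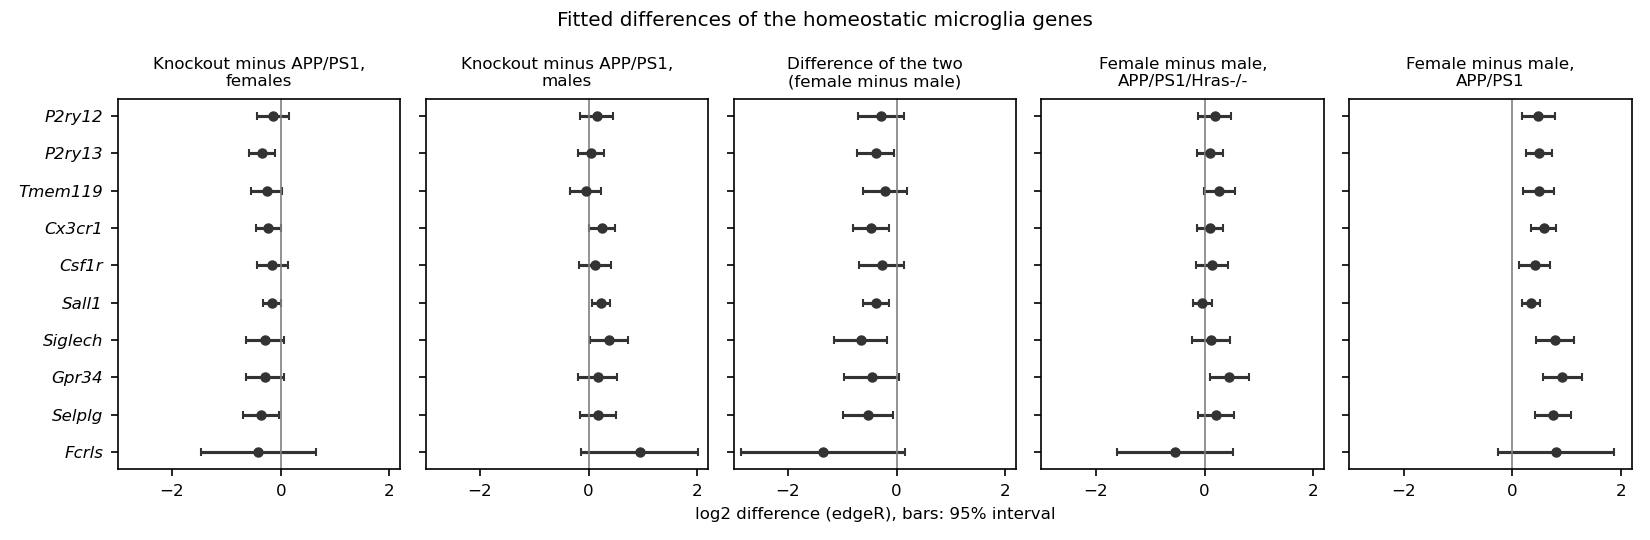
Log2 differences of the 10 members fitted by edgeR, with normal 95% intervals, for APP/PS1/Hras-/- (knockout) minus APP/PS1 in each sex, the female minus the male genotype effect, and female minus male in each genotype. All points lie left of 0 in females and in the difference of the effects, and right of 0 for the sexes of APP/PS1 mice, where Gpr34 reaches 0.92.

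Other microglial lists were read beside the members, and in each of the 21 lists, with 253 genes outside the members, the edgeR test called 0 genes in any comparison. Calls of these lists by DESeq2, which called members between the sexes of APP/PS1 mice, are not given here. In APP/PS1 mice 27 of 29 other homeostatic microglia genes were higher in females, with a median log2 difference of 0.47. Rasal3, a Ras GTPase-activating protein of blood-lineage cells, differed by 0.74 (SE 0.17, edgeR adjusted p = 0.328), and Itgb5, an integrin subunit, by 0.53 (SE 0.13, edgeR adjusted p = 0.356). Genes that microglia express in all states were higher in APP/PS1 females in 22 of 23 cases (median 0.59), among them Cd68, a lysosomal protein of macrophages, at 0.91 (edgeR adjusted p = 0.375) and Tyrobp, the adaptor of Siglech, at 1.11 (edgeR adjusted p = 0.378). Disease-associated microglia genes were higher in 28 of 30 cases (median 0.58), with Gusb, a lysosomal enzyme, at 0.75 (edgeR adjusted p = 0.286) and the chemokine Ccl6 at 1.32 (edgeR adjusted p = 0.328). Homeostatic, general and disease-associated genes were thus higher in the same mice. A female-high direction was not limited to APP/PS1 mice. In APP/PS1/Hras-/- mice 23 of 29, 23 of 23 and 27 of 30 genes of these lists were higher in females, with medians of 0.10, 0.28 and 0.33. In the female genotype comparison 24 of 29, 21 of 23 and 27 of 30 genes of these 3 lists were lower in APP/PS1/Hras-/- mice, with medians of -0.19, -0.18 and -0.22.

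The level of microglial genes as a whole was set beside the members in 2 ways. The genes of all states summed to 828 to 1162 CPM in APP/PS1/Hras-/- females, 1065 to 1159 CPM in APP/PS1 females, 602 to 970 CPM in APP/PS1/Hras-/- males and 687 to 881 CPM in APP/PS1 males. With their mean log2 level as a covariate, the median sex difference of the members in APP/PS1 mice was 0.19, with a range from -0.06 (Csf1r) to 0.59 (Fcrls). That level, centred over the 12 libraries, was 0.29 to 0.42 in APP/PS1 females and -0.38 to -0.06 in APP/PS1 males, without overlap. The covariate thus cannot be told apart from sex in APP/PS1 mice. It is an RNA level and does not measure the number of microglia apart from their state. In the female genotype comparison the same covariate gave a median of -0.10, and the difference of the genotype effects a median of -0.23. With Aif1, Itgam and Ptprc alone as the covariate, which was chosen after seeing the data, the medians were 0.29, -0.16 and -0.26. The mean of 9 members without Fcrls, less the mean of the all-state genes, lay between -0.19 in APP/PS1/Hras-/- female 1 and 0.23 in APP/PS1/Hras-/- male 3 on the log2 scale over the 12 libraries.

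Markers of cells other than microglia also differed between the sexes of APP/PS1 mice, and their part in the members' values was not tested. Border-associated macrophage genes were higher in females for 11 of 12 genes (median 0.68), and summed to 39.98 to 51.5 CPM in APP/PS1/Hras-/- females, 50.5 to 53.8 CPM in APP/PS1 females, 31.9 to 51.0 CPM in APP/PS1/Hras-/- males and 33.7 to 37.6 CPM in APP/PS1 males. That list was detected in every library, with its least expressed gene Folr2 at a mean of 0.554 CPM. Astrocyte genes were higher in females for 9 of 9 genes (median 0.26), summing to 5648 to 7057 CPM in APP/PS1/Hras-/- females, 6806 to 7428 CPM in APP/PS1 females, 5866 to 7336 CPM in APP/PS1/Hras-/- males and 5823 to 6417 CPM in APP/PS1 males. Neuronal genes went the other way, with 1 of 10 higher (median -0.25) and sums of 7004 to 7463 CPM in APP/PS1/Hras-/- females, 5804 to 6825 CPM in APP/PS1 females, 6827 to 8046 CPM in APP/PS1/Hras-/- males and 7539 to 8014 CPM in APP/PS1 males. Choroid plexus and leptomeningeal genes were higher in females for 8 of 8 genes each, at medians of 3.09 and 0.65. The choroid plexus difference rested on APP/PS1 female 2: the list's mean centred log2 level was -0.98, 3.90 and -0.48 in APP/PS1 females, against -0.04, -0.97 and -1.07 in APP/PS1 males. With both of the outlying libraries named at the start left out, the members' median was 0.58.

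The ligands of the receptors were compared by the same tests. Csf1, a growth factor of Csf1r, had 41.7, 42.1 and 34.7 CPM in APP/PS1/Hras-/- females, 39.1, 33.6 and 46.2 CPM in APP/PS1 females, 30.8, 38.4 and 31.7 CPM in APP/PS1/Hras-/- males, and 33.2, 35.1 and 35.3 CPM in APP/PS1 males, and its log2 difference between the sexes of APP/PS1 mice was 0.20 (SE 0.12). Il34, the neuronal ligand of Csf1r, differed by -0.08 (SE 0.15) in that comparison and by 0.09 (SE 0.15) between the genotypes in females. Cx3cl1, the ligand of Cx3cr1, went against its receptor. It had 839, 639 and 776 CPM in APP/PS1/Hras-/- females, 608, 575 and 665 CPM in APP/PS1 females, 660, 582 and 668 CPM in APP/PS1/Hras-/- males, and 708, 693 and 752 CPM in APP/PS1 males. Its log2 difference between genotypes was 0.29 in females (SE 0.10, edgeR unadjusted p = 0.0170, adjusted p = 0.991), and the genotype effects differed by 0.46 (SE 0.15, edgeR unadjusted p = 0.00826, adjusted p = 0.667). Cx3cl1 is expressed mainly by neurons, whose marker list also lay lowest in APP/PS1 females, and the part of that list in the values of Cx3cl1 was not tested. Tgfb1, whose signal microglia need to keep their homeostatic genes in mice, was higher in APP/PS1 females than in APP/PS1 males by 0.52 (SE 0.21, edgeR adjusted p = 0.428).

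Downstream and neighbouring genes of these pathways gave smaller medians between the sexes of APP/PS1 mice. Csf1r signalling genes were higher in females for 8 of 11 genes (median 0.30), with Plcg2, a phospholipase, at 0.53 (SE 0.18, edgeR adjusted p = 0.379). Cx3cl1 and its sheddases were higher for 3 of 4 genes (median 0.27), with Adam17 at 0.35 (SE 0.11, edgeR adjusted p = 0.378). Purinergic genes around P2ry12 were higher for 10 of 16 tested genes (median 0.04), with the ectonucleotidase Entpd1 at 0.40 (edgeR adjusted p = 0.393) and the ATP receptor P2rx7 at 0.31 (edgeR adjusted p = 0.459). The TGF-beta axis was higher for 10 of 15 genes (median 0.14), with the receptors Tgfbr1 at 0.54 (edgeR adjusted p = 0.375) and Tgfbr2 at 0.51 (edgeR adjusted p = 0.378). Microglial transcription factors were higher for 10 of 15 genes (median 0.06), with Ikzf1 at 0.66 (edgeR adjusted p = 0.375) and Irf5 at 0.62 (edgeR adjusted p = 0.378).

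**Figure D4:**
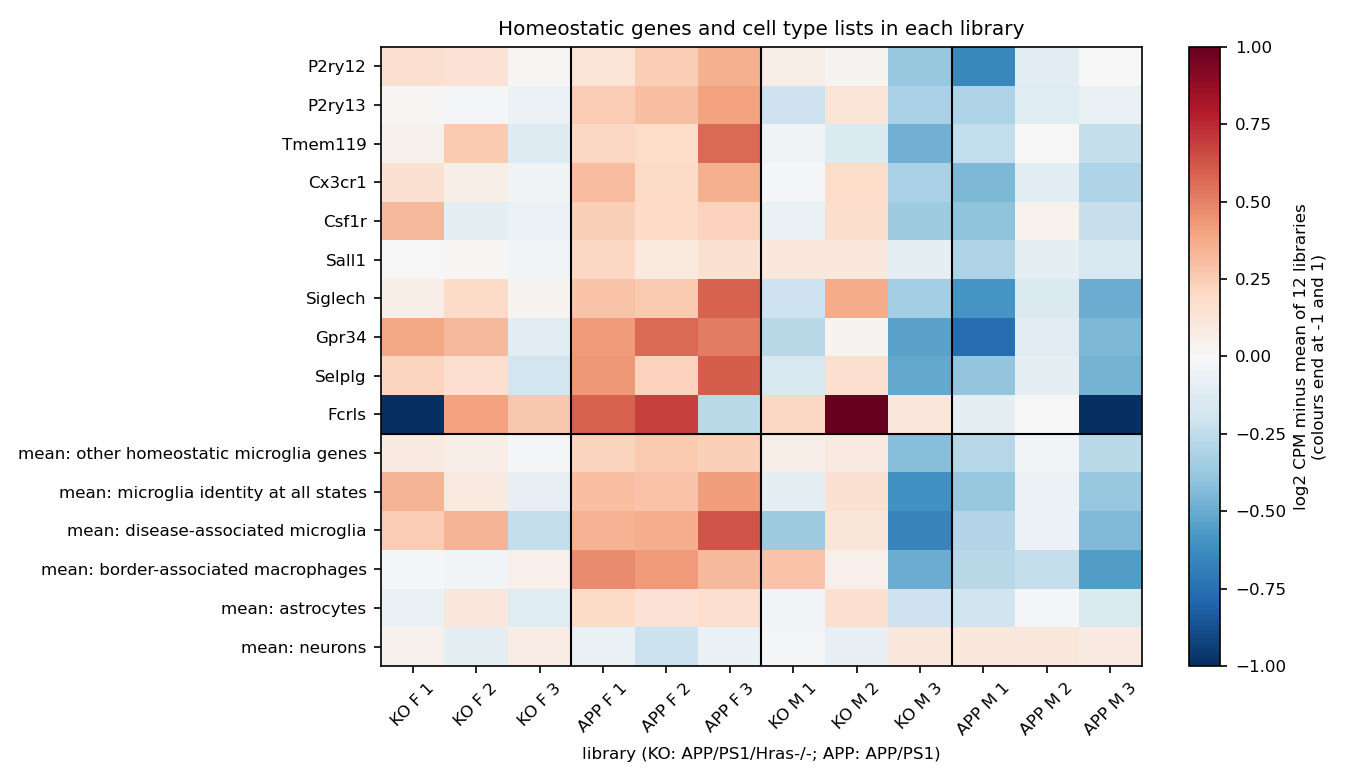
Log2 CPM of each member and mean of 6 cell type lists in each library, less the mean of 12 libraries, with APP/PS1/Hras-/- (KO) left of APP/PS1 (APP) in females (F) and then in males (M). The APP/PS1 female columns are red for nearly all members and for the microglial lists, while the row of Fcrls does not follow the others. In these columns the border-associated macrophage and astrocyte rows are also above 0. The neuron row is weakly below 0 there, at -0.06, -0.22 and -0.07.

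Mice of a group also differed from each other, and most members moved together. After group means were removed, the correlation over 12 libraries (log2 CPM) between pairs of the 9 members other than Fcrls ran from 0.43 (Tmem119 and Csf1r) to 0.91 (Cx3cr1 and Selplg), with a median of 0.73 over 36 pairs. The 9 pairs with Fcrls ran from -0.33 to 0.29, with a median of 0.04. Cx3cr1 followed the mean of the other members without Fcrls most closely, with r = 0.97 and rho = 0.95 over 12 libraries, and r = 0.94 without the 2 libraries farthest from the median. With Fcrls kept in the mean, Siglech (r = 0.88) and Cx3cr1 (r = 0.87) were the highest. Fcrls had r = 0.03 and rho = 0.21 with the mean of the others, and r = -0.29 without the 2 farthest libraries. Members of a library share its tissue content and depth, so these values describe the libraries and not a link between the genes. The SD within groups on the log2 scale was 0.087 for Sall1, 0.14 for P2ry13, 0.17 for Cx3cr1 and 0.26 for Gpr34, and 0.76 for Fcrls. The correlation was 0.73 between the neighbours P2ry12 and P2ry13 and 0.80 between the neighbours Tmem119 and Selplg, both within the range over all pairs.

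The low values of Fcrls were shared with some other genes on chromosome 3, which were looked up after its values were seen and picked for their high correlation with it. The genes with the highest correlation lay on other chromosomes: Acsf2 on chromosome 11 (r = 0.95) and Fgfr1 on chromosome 8 (r = 0.91), with group means kept. The 3 lowest libraries of Fcrls were APP/PS1 male 3, APP/PS1/Hras-/- female 1 and APP/PS1 female 3, from 3 different groups. The same 3 libraries were the lowest for Rps3a1, a ribosomal protein gene at chr3:86137940-86142702, with at most 98.4 CPM there against 171 to 274 CPM in the other 9 libraries. Bche, which encodes butyrylcholinesterase (chr3:73635808-73708415), had at most 4.0 CPM in these libraries against 4.49 to 7.78 CPM in the others. Gm20628 had at most 0.444 CPM against 0.943 to 2.47 CPM, and Gm5148, which lies 49.5 Mb from Fcrls, at most 0.0493 CPM against 1.83 to 7.73 CPM. S100a11 shared 2 and Ttf2 1 of these as its 3 lowest libraries. Correlations with Fcrls were taken here with group means kept, so they include differences between the groups. Within 20 Mb of Fcrls, 6 of 386 tested genes (1.55%) had one over 0.8 in size, against 33 of 16920 genes elsewhere (0.195%). P2ry12 and P2ry13, on the same chromosome, held no such low values in those libraries. No test was made of this pattern, and its cause was not tested.

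**Figure D5:**
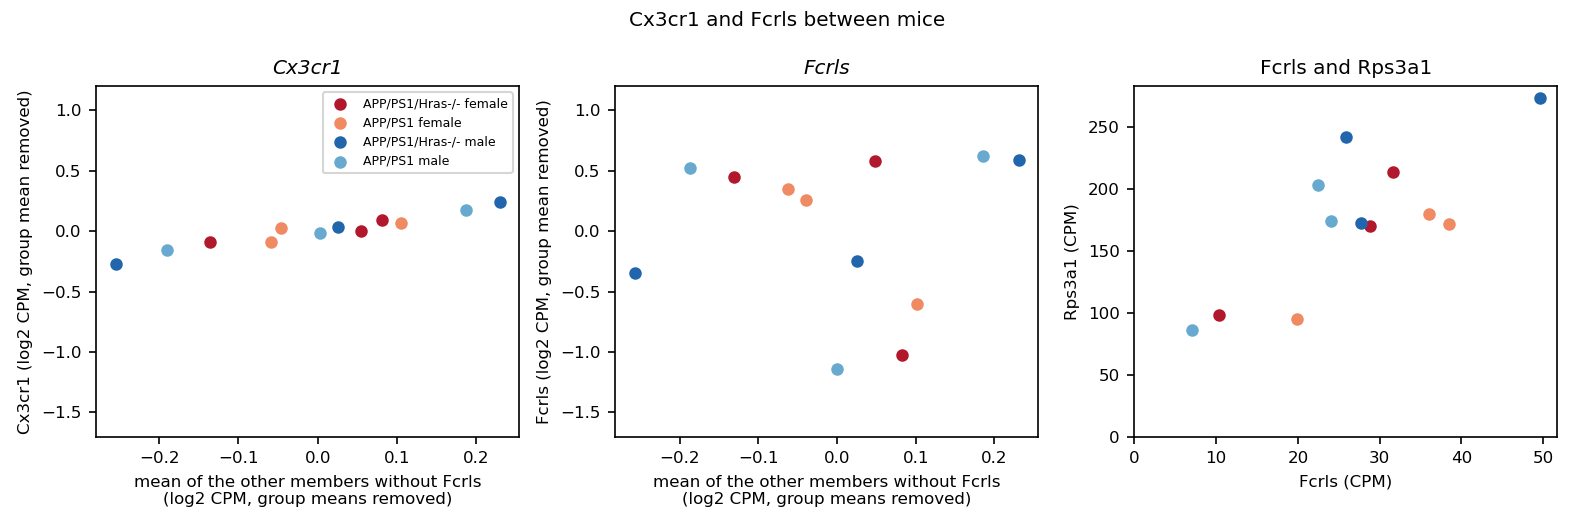
Left and middle, log2 CPM of Cx3cr1 and of Fcrls in 12 libraries against the mean of the other members without Fcrls, group means removed. Right, CPM of Rps3a1 against CPM of Fcrls, where 3 libraries from 3 groups sit at or below 98.4 CPM of Rps3a1 and the other 9 at 171 CPM or more.

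The tested genes outside the members whose level was most like the mean of the 10 members, by Pearson correlation of log2 CPM over 12 libraries with group means removed, were Gm18180 (0.97), Gpr84 (0.97), C3ar1 (0.96), Ctsh (0.96), Sh3bp2 (0.95), Tbxas1 (0.94), Hpgds (0.94), Cdh5 (0.93), Bcl2l12 (0.93) and Clec7a (0.92). Some of these levels were low: Gm18180, a processed pseudogene, averaged 0.510 CPM, Gpr84 2.81 CPM and Bcl2l12 2.31 CPM. Gpr84 is a receptor of medium-chain fatty acids, C3ar1 the receptor of complement C3a, and Ctsh a lysosomal cathepsin. Against the mean of the 9 members without Fcrls the 10 closest genes were Pde3b (0.98), Tbxas1 (0.98), Cd33 (0.96), Ctss (0.96), Cst7 (0.96), Samsn1 (0.96), Itgb2 (0.95), Cd52 (0.95), Wdfy4 (0.95) and Mbnl1 (0.95). The lists had 1 gene in common, Tbxas1, which encodes thromboxane A synthase, so which genes were closest turned on the inclusion of Fcrls.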

How the data were processed

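The values deposited by the authors are raw counts for each gene in each library. Per the labels' protocols, a stranded poly(A) kit was used. Tools in the submitters' processing notes are featureCounts, HISAT2 2.1.0, Trimmomatic 0.33 and FastQC 0.11.7, with the builds mm10 and mm9 and no roles. No source used here gives the annotation, the strand setting or the treatment of multiply aligned reads. Gene identifiers were matched to GENCODE M21, and 37 of 54532 had no match (0.00986% of the counts). Replicate numbers follow the deposited order and pair no mice. The labels call the samples separate, so p-values measure the spread between these mice.

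Testing used R 4.3.3 and edgeR 4.0.16 with its quasi-likelihood test (TMM scaling, filterByExpr over 4 groups, robust dispersions) with Benjamini-Hochberg adjustment over 17307 genes and a threshold of 0.05. The effect across sexes was fitted with sex as an additive term, and the other 5 comparisons as contrasts of 4 group means over 12 libraries. Each SE is the log2 difference over the root of its F value, and 95% intervals are normal. They ignore the limited degrees of freedom of the F test, so they are too narrow and can leave out 0 where the unadjusted p is above 0.05. Log2 CPM used a prior count of 2. DESeq2 1.42.0 and limma-voom (limma 3.58.1), other scalings and filters, covariates and left-out libraries were the alternatives. The fits were tested on simulated data.

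The members and the 21 other gene lists were chosen with earlier results of these data known. Named genes were the members, the direct ligands and the 10 genes most like the members. In some lists the 2 genes with the smallest p, or 1 of them, were also named, and in other lists neither was, among them Cbr2 and Siglec1 of border-associated macrophages. Other names were chosen after their values were seen.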

Additional observations from a re-analysis of the deposited data

Results flagged for a closer look

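P2ry12 had 33.0 CPM in APP/PS1/Hras-/- male 3, the lowest of the 6 APP/PS1/Hras-/- libraries, while the other 5 lay between 43.4 and 48.1 CPM. The gap to the nearest library, as a share of the whole range, was above the Dixon limit for 6 values, which chance passes in about 1 of 20 groups. That limit takes the 6 values as 1 group, although they are of both sexes. The same library was the lowest of the 6 for all members but Fcrls, and its all-state microglia genes had the lowest summed level of the 12 libraries, at 602 CPM.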

How the results depend on the processing

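Groups of 3 mice limit the precision of each difference. No member was called by edgeR in any of the 6 comparisons under RLE or upper quartile scaling, under a filter of 1 CPM in 3 libraries, with non-robust dispersions, with a covariate, by limma-voom, or with any library left out. The exceptions were in the sexes of APP/PS1 mice, where DESeq2 called 4 members and edgeR without a filter 1. No paired analysis was possible because the replicate numbers follow the deposited order and pair no mice.

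Genes called by DESeq2 were 7 across sexes, 5 in females, 4 in males and 54 between the sexes of APP/PS1 mice, and without a filter 5 across sexes and 4 in females. RIN as a covariate moved the members' median to -0.13 across sexes, -0.066 in males, -0.15 for the difference of the genotype effects and 0.27 between the sexes of APP/PS1/Hras-/- mice. RIN did not overlap between the genotypes in males or between the sexes of either genotype, so these fits cannot separate it from the groups. The mean of the all-state microglia genes as a covariate moved it to -0.10 in females, 0.089 in males and -0.23 for the difference of effects. It moved the median to -0.062 between the sexes of APP/PS1/Hras-/- mice and 0.19 between those of APP/PS1 mice. Aif1, Itgam and Ptprc as the covariate, chosen after seeing the data, moved the median to -0.26 for the difference of effects and to 0.29 between the sexes of APP/PS1 mice. The cause was not tested. The median correlation of a member with the other members was 0.72, and 0.87 with group means kept and 0.83 among the 9 members without Fcrls. With each library left out in turn the members' median ran from -0.10 to 0.03 across sexes, -0.34 to -0.17 in females, 0.05 to 0.28 in males, -0.52 to -0.32 for the difference of effects, 0.01 to 0.26 between the sexes of APP/PS1/Hras-/- mice and 0.47 to 0.62 between those of APP/PS1 mice.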

Other observations

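In the comparison of the genotype effects, female minus male, 5 of 7 oligodendrocyte precursor genes were below 0 and 2 above it, with a median of -0.26 and a highest value of 0.03. Pdgfra, the growth factor receptor of these precursors, had a difference of the genotype effects, female minus male, of -0.85 (SE 0.19, edgeR unadjusted p = 0.00054, adjusted p = 0.667), and Cspg4, their proteoglycan marker, of -0.61 (SE 0.17, edgeR adjusted p = 0.667). In females 1 of 7 genes of that list was higher in APP/PS1/Hras-/- mice, and 6 of 7 were higher in APP/PS1 females than in APP/PS1 males, with medians of -0.17 and 0.20. None was called. Oligodendrocyte genes went the other way, with 9 of 9 higher in APP/PS1/Hras-/- females than in APP/PS1 females (median 0.17) and 0 of 9 higher in APP/PS1 females than in APP/PS1 males (median -0.14). These groups overlapped in the list's mean centred log2 level. It ran from -0.47 to 0.47 in APP/PS1/Hras-/- females, -0.60 to 0.32 in APP/PS1 females and 0.02 to 0.14 in APP/PS1 males.

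Endothelial and mural genes were higher in APP/PS1/Hras-/- males than in APP/PS1 males for 12 of 12 genes (median 0.18), and in APP/PS1 females than in APP/PS1 males for 12 of 12 (median 0.25), with Abcb1a, a transporter of the blood-brain barrier, at 0.38 (SE 0.13, edgeR adjusted p = 0.378). Blood genes were lower in APP/PS1/Hras-/- females than in APP/PS1 females for 4 of 4 genes tested. Hba-a1, a haemoglobin subunit, differed by -1.92 (SE 0.40, edgeR unadjusted p = 0.000342, adjusted p = 0.987). Striatal genes were lower in APP/PS1/Hras-/- mice than in APP/PS1 mice for 8 of 8 genes across sexes (median -0.32). The genotypes overlapped in the striatal list's mean centred log2 level, at -0.84 to 1.01 in APP/PS1/Hras-/- males and -1.22 to 1.23 in APP/PS1 males. The smallest edgeR unadjusted p of that list in any comparison was 0.311 (Penk, in females). Of lymphocyte, monocyte and plasmacytoid dendritic cell lists, 3 of 11, 1 of 11 and 4 of 7 genes passed the filter on low counts, and 0 were called by edgeR. The monocyte gene that passed, Ly6c2, was higher in APP/PS1/Hras-/- mice across sexes by a log2 difference of 2.19 (SE 0.81, edgeR unadjusted p = 0.0175, adjusted p = 0.9999). Its level was near the floor and the genotypes overlapped, with 1 to 20 counts per library in APP/PS1/Hras-/- mice and 0 to 9 in APP/PS1 mice.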
